A study of Homo sapiens with 18 samples.

Results

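MYC and its relatives act as a network of dimerizing transcription factors, and 10 of its genes were followed by name through RNA-seq libraries of human PSCs with and without PCGF6. The genes are the MYC family (MYC, MYCN, MYCL), the MXD and MNT repressors (MXD1, MXD3, MXD4, MXI1, MNT) and the MLX branch (MLX, MLXIP). They are 10 of the 57133 genes in the count table, and all 10 were among the 17672 genes that passed the filter on low counts. In each dimer a basic helix-loop-helix leucine zipper factor pairs with MAX, or with the MAX-like protein MLX, and binds E-box DNA. MYC proteins with MAX recruit coactivators and drive growth and ribosome production, while MXD proteins and MNT compete for MAX and recruit the SIN3 corepressor. In PSCs, MYC and MYCN are known for their part in self-renewal, and MLXIP with MLX responds to glucose metabolites.

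The cells were PGP1, an established human induced PSC line kept in mTeSR1 medium on Matrigel. WT cells gave 2 libraries, and each of 2 PCGF6-KO clones gave 2 libraries. The clones came from CRISPR-Cas9 editing with a pair of guides, and each carries a deletion within the first PCGF6 exon on both alleles. Each knockout line is 1 clone, so a difference between it and WT cannot be told apart from a difference between clones of any kind. Nothing in the labels states that the 2 libraries of a group came from separate cultures, so the p-values measure the spread between these libraries, which may be technical. PCGF6 is a subunit of the non-canonical Polycomb complex PRC1.6, which also holds MAX and the MAX partner MGA.

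The libraries held between 15877396 and 18918609 counts. WT libraries held 268 and 300 PCGF6 counts, clone 1 held 99 and 103, and clone 2 held 187 and 159. PCGF6 fell in both clones, with a log2 fold change of -1.67 in clone 1 and -0.77 in clone 2, and the remaining transcript was higher in clone 2 (log2 difference 0.90, adjusted p = 5.4e-05, edgeR's quasi-likelihood test). Levels are in counts-per-million (CPM) after TMM scaling. The 12 pluripotency markers summed to between 11502 and 11956 CPM in WT and between 8933 and 9993 CPM in PCGF6-KO. DNMT3B had the largest fall in CPM, from 2955 and 3085 in WT to between 1149 and 1605 in PCGF6-KO. POU5F1 overlapped between the groups, at 1492 and 1499 CPM in WT and 1416 to 1625 CPM in PCGF6-KO. By log2 fold change, 5 of the 12 markers were above 0 and 7 below. Of these 12, 0 were called higher and 3 lower, where 8.70% of all tested genes were called lower. All had counts in every library, but ZFP42 was nearly lost, from 304 and 329 counts in WT to 1 or 2 in each PCGF6-KO library. The sum of 10 mesendoderm markers was 4.13 to 5.40 CPM in WT, where SOX17, MESP1 and HAND1 were at 0, and 689 to 925 CPM in PCGF6-KO. The sum of 7 neuroectoderm markers was 350 to 396 CPM in WT and 626 to 743 CPM in PCGF6-KO, with 3 of the 5 tested markers called higher and 1 lower. NES made up most of that sum (277 and 322 CPM in WT, 592 to 709 CPM in PCGF6-KO), while OTX2 fell from 72.0 and 72.1 CPM to between 28.8 and 31.6 CPM. For 7 fibroblast markers the sum was 852 to 864 CPM in WT, where DCN and LUM were at 0, and 1747 to 2082 CPM in PCGF6-KO, with 6 called higher and 1 lower. The lower marker was THY1, the most abundant of them in WT, which fell from 620 and 605 CPM to between 258 and 284 CPM. DNMT3B, POU5F1, ZFP42, NES, OTX2 and THY1 were named after their values were seen. These marker sums moved with every difference between PCGF6-KO and WT given here, and their part in the differences was not tested. In bulk RNA, fewer cells of a type and less RNA per cell cannot be told apart.

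MYC and MYCL rose in both PCGF6-KO clones, MXD1 rose by less and MXD4 fell. With the 4 PCGF6-KO libraries set against the 2 WT libraries, 4 of the 10 network genes were called, 3 higher and 1 lower. The call rule asked for an adjusted p below 0.05 (edgeR's quasi-likelihood test, Benjamini-Hochberg) and a log2 fold change beyond 0.6 in either direction. Among all tested genes 23.6% were called, 14.9% higher and 8.70% lower, so the network genes' count has to be read against a wide change of the transcriptome. By adjusted p alone 5 of the 10 passed, against 37.1% of all genes. The CPM of 5 of the 10 did not overlap between PCGF6-KO and WT, against 57.1% of all genes, which is no excess over the background. The median log2 fold change was 0.11 over the 10 genes and 0.00 over all tested genes, and the 10 values ran from -0.68 to 0.99 with 9 of them above 0, of which MXI1 turned to -0.011 under upper-quartile normalization.

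**Figure D1:**
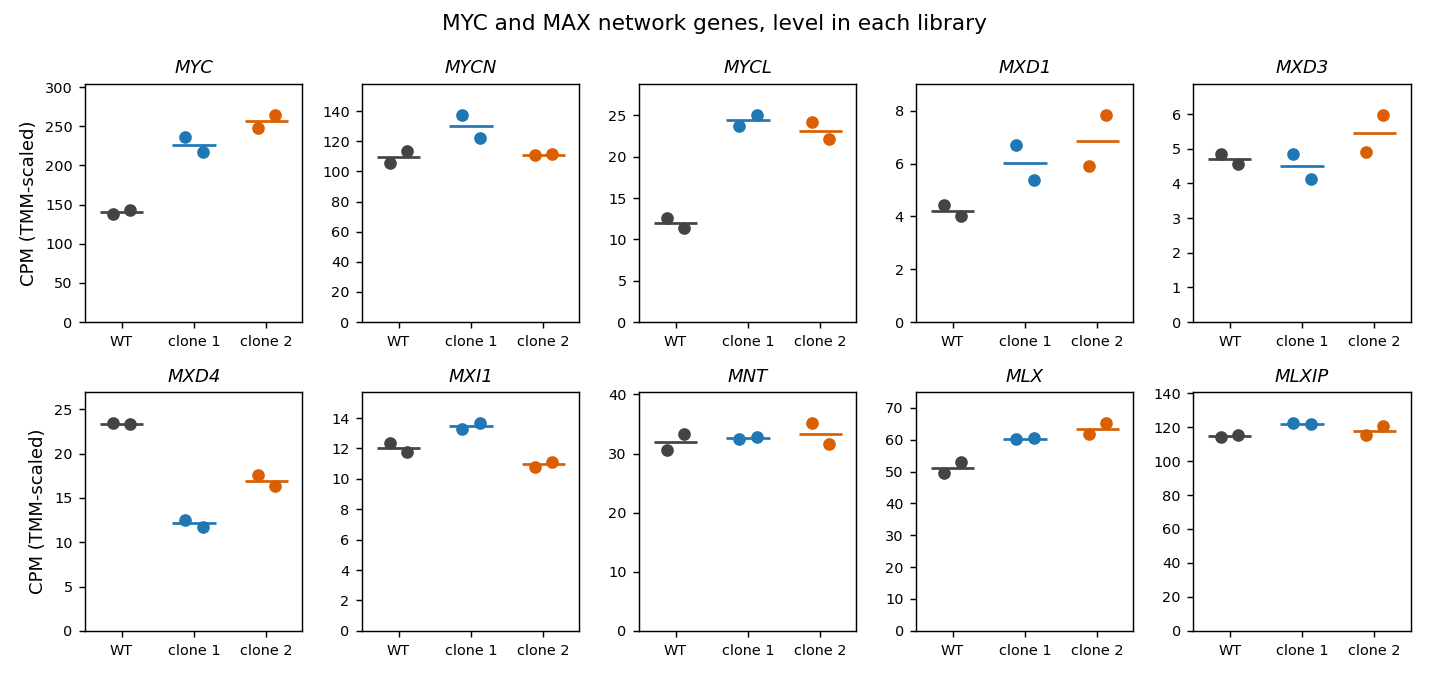
CPM after TMM scaling (y axis, from 0) of the 10 network genes in WT, clone 1 and clone 2, with 1 point for each library and a line at the mean of each pair. MYC and MYCL lie higher in all 4 PCGF6-KO libraries than in both WT libraries and MXD4 lies lower, while the points of MYCN, MXD3, MXI1, MNT and MLXIP overlap between PCGF6-KO and WT.

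MYC (GRCh38 chromosome 8, 127735434 to 127742951, plus strand) encodes the family member expressed in most dividing cells. It had 139 and 144 CPM in WT, 236 and 217 CPM in clone 1, and 248 and 265 CPM in clone 2. Every PCGF6-KO library stood above both WT libraries, and the lowest of clone 2 stood above the highest of clone 1. The log2 fold change of MYC in PCGF6-KO was 0.78 (SE 0.08, adjusted p = 0.000134), a 1.71-fold rise. Against WT, MYC rose by 0.68 log2 units in clone 1 (SE 0.06, adjusted p = 8.5e-10) and by 0.86 in clone 2 (SE 0.06, adjusted p = 6.5e-12). Both clones were set against the same 2 WT libraries. In each of these comparisons the call held when any 1 library was left out.

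MYCL (chromosome 1, 39895428 to 39902256, minus strand), the relative first found in lung cancer, showed the largest change of the 10. It stood at 12.6 and 11.3 CPM in WT, 23.7 and 25.1 CPM in clone 1, and 24.2 and 22.2 CPM in clone 2. All 4 PCGF6-KO libraries lay close together and well above WT, and the clones overlapped. The log2 fold change was 0.99 (SE 0.10, adjusted p = 0.000104), close to a doubling at 1.99-fold. It was 1.03 in clone 1 and 0.96 in clone 2, both called, and the difference between the clones was -0.07 (95% interval -0.27 to 0.13). The MYCL call also held without any 1 library.

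MYCN (chromosome 2, 15940550 to 15947007, plus strand), the relative of neural progenitors and neuroblastoma, was not called. It had 106 and 113 CPM in WT, 138 and 122 CPM in clone 1, and 111 and 112 CPM in clone 2. Clone 1 was above WT in both libraries, whereas clone 2 lay within the WT range. Its log2 fold change in PCGF6-KO was 0.14 (SE 0.10, 95% interval -0.05 to 0.33, adjusted p = 0.292). In clone 1 alone it was 0.25 (SE 0.07, adjusted p = 0.00436), which is under the fold threshold, and in clone 2 it was 0.02 (adjusted p = 0.827).

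On a per-length scale, as transcripts-per-million (TPM) from the gene lengths deposited beside the counts, MYC and MYCN made up nearly all of the family's RNA and MYCL a small share. The 3 levels summed to 396 and 417 TPM in WT, 591 and 547 TPM in clone 1, and 533 and 559 TPM in clone 2. MYC made up 51.7% and 51.1% of this sum in WT, while clone 1 had 57.7% and 58.2% and clone 2 had 63.6% and 65.1%. The MYCN share took the opposite course, with WT at 45.5% and 46.5%, clone 1 at 38.8% and 37.8%, and clone 2 at 32.7% and 31.7%. MYCL made up 2.78% and 2.39% in WT and between 3.23% and 3.99% in PCGF6-KO. Among all 10 genes it went from the lower end of the order toward the middle. In WT, MYCL (11.04 and 9.97 TPM) was below MXD4 (14.7 TPM in both) and MNT (15.5 and 17.0 TPM). In PCGF6-KO, at 18.1 to 21.8 TPM, it was above both, with MXD4 at 7.34 to 10.2 TPM and MNT at 14.9 to 16.5 TPM. MXI1 lay at 9.61 to 13.0 TPM, and its place beside MYCL in WT depends on its length, 4607 bases as deposited and 5907 in GENCODE. Above them in every library came MLXIP (34.0 to 38.6 TPM) and MLX (51.5 to 63.0 TPM), and MXD1 and MXD3, at 2.82 to 5.10 TPM, were lowest and overlapped each other over the 6 libraries. The 3 groups did not overlap in the shares of MYC and MYCN, which are given without a test because they were formed after earlier results were known. The order of MYC and MYCN depends on the gene length used: the deposited MYC length was 3001 bases, while the merged exons of GENCODE release 44 span 6109 bases. The ratio of MYC to MYCN in TPM averaged 1.12 in WT and 1.76 in PCGF6-KO with deposited lengths, and 0.581 and 0.914 with the GENCODE lengths. It was higher in every PCGF6-KO library than in WT under both.

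Of the 5 repressor genes, 1 rose, 1 fell and 3 were not called. MXD1, whose protein is induced as cells leave the cycle and differentiate, had 4.42 and 4.02 CPM in WT, 6.69 and 5.39 CPM in clone 1, and 5.90 and 7.85 CPM in clone 2. PCGF6-KO did not overlap WT, but the clones overlapped each other. The 2 libraries of a clone lay farther apart than the means of the clones. The MXD1 log2 fold change was 0.61 (SE 0.20, adjusted p = 0.0392), just past the fold threshold. It rested on few counts (67 to 128 per library), and it lost its call in several refits. The adjusted p was 0.135 without WT replicate 1, 0.214 without WT replicate 2, 0.0650 without clone 1 replicate 1 and 0.0733 without clone 2 replicate 2. DESeq2 gave an adjusted p of 0.0621, and the fit with the replicate number as a block gave 0.0676. Clone 1 alone was under the fold threshold (0.52, adjusted p = 0.0303), and it passed at 0.68 without its replicate 2. Clone 2 alone was called at 0.70 (adjusted p = 0.00368), and it lost that call without its replicate 2 (0.49, adjusted p = 0.0880).

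MXD4, a repressor of the same family that is expressed in resting and differentiating cells, was the only network gene called lower. It had 23.4 and 23.3 CPM in WT, 12.5 and 11.8 CPM in clone 1, and 17.5 and 16.4 CPM in clone 2. The 3 groups were separate, with clone 1 lowest and clone 2 between it and WT. The MXD4 log2 fold change in PCGF6-KO was -0.68 (SE 0.16, adjusted p = 0.0104), so the WT level was 1.61 times that of PCGF6-KO. In clone 1 it was -0.94 (SE 0.11, adjusted p = 6.0e-08). In clone 2 it was -0.46 (SE 0.11, adjusted p = 0.000675), which is under the fold threshold. The pooled call was lost without WT replicate 1 (adjusted p = 0.0737) or WT replicate 2 (adjusted p = 0.0715), and without clone 1 replicate 2, where the log2 fold change was -0.58.

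The other 3 repressor genes were called in none of the comparisons with WT or between the clones. MNT, the broadly expressed MAX partner that offsets MYC, ranged from 30.5 to 33.4 CPM in WT and from 31.5 to 35.1 CPM in PCGF6-KO, which is a log2 difference of 0.04 (95% interval -0.12 to 0.21). MXI1, also called MXD2, had 12.3 and 11.7 CPM in WT, 13.3 and 13.6 CPM in clone 1, and 10.8 and 11.1 CPM in clone 2. Its clones lay on opposite sides of WT, at 0.16 and -0.14 log2 units. MXD3, a repressor expressed in S phase, ran from 4.55 to 4.85 CPM in WT and from 4.13 to 5.98 CPM in PCGF6-KO (log2 difference 0.08, 95% interval -0.30 to 0.46). The low MXD3 counts, 75 to 96 per library, leave that interval wide.

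In TPM the 5 repressor genes summed to less in PCGF6-KO, with WT at 49.4 and 49.9, clone 1 at 45.0 and 44.1, and clone 2 at 43.97 and 44.3. MXD4 accounted for 29.8% and 29.5% of that sum in WT, whereas clone 1 had 17.1% and 16.6% and clone 2 had 23.2% and 21.6%. The summed MYC family level was 8.02 and 8.36 times the summed repressor level in WT. It was 13.1 and 12.4 times in clone 1 and 12.1 and 12.6 times in clone 2. The family sum was thus higher and the repressor sum lower in every PCGF6-KO library than in WT. The sums and ratios rest on the deposited lengths, and their size would change with others. GENCODE gives MYC 6109 bases in place of 3001, and MXI1 5907 in place of 4607. The sums were not formed again with those lengths. The size of the repressor fall also depends on the TPM scale, and the sums were not formed with TMM-scaled counts per kilobase. All these values are levels of mRNA, and no protein data were analysed here.

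**Figure D2:**
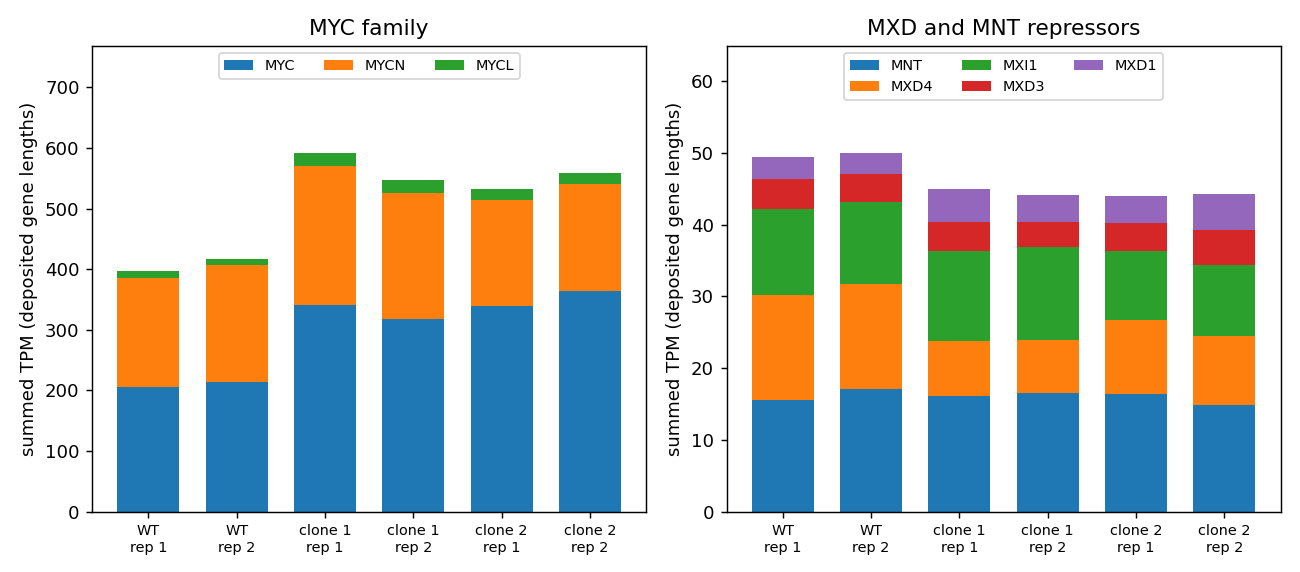
Summed TPM (y axis, from 0, deposited gene lengths) of the MYC family and of the MXD and MNT repressor genes, with 1 stacked bar for each library and 1 colour for each gene. The MYC family bars rise from 396 and 417 TPM in WT to between 533 and 591 TPM in PCGF6-KO, and the repressor bars go from 49.4 and 49.9 TPM to between 43.97 and 45.0 TPM.

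MLX and MLXIP form the branch of the network that does not need MAX. MLX stood at 49.4 and 52.9 CPM in WT, 60.1 and 60.4 CPM in clone 1, and 61.7 and 65.1 CPM in clone 2. All PCGF6-KO libraries were above WT. The log2 fold change of MLX, 0.27 (SE 0.07, adjusted p = 0.0159), passed the adjusted p and not the fold threshold, and the clones gave 0.24 and 0.31. MLXIP, the glucose sensor also called MondoA, overlapped between the groups at 114 to 115 CPM in WT and 115 to 122 CPM in PCGF6-KO (log2 difference 0.06, 95% interval -0.05 to 0.18).

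MAX and MGA were not called. MAX, the obligate dimer partner of the MYC and MXD proteins, had 36.7 and 41.3 CPM in WT and between 35.9 and 41.1 CPM in PCGF6-KO (log2 difference -0.01, 95% interval -0.18 to 0.17). MGA, the large MAX partner that shares PRC1.6 with PCGF6, had 102 to 104 CPM in WT and 99.6 to 122 CPM in PCGF6-KO (0.13, adjusted p = 0.313). With MLXIPL, 0 of these 3 partners were called by edgeR's test, while 1, MLXIPL, had an unadjusted p under 0.05 and was called by DESeq2. MLXIPL, the liver and fat relative of MLXIP also called ChREBP, stood at 10.6 and 8.75 CPM in WT, 7.69 and 7.21 CPM in clone 1, and 3.36 and 3.30 CPM in clone 2. The 3 groups were separate, and the log2 fold change was -0.38 in clone 1 and -1.54 in clone 2, of which the second was called (adjusted p = 4.5e-08).

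Considered one clone at a time, 3 of the 10 network genes were called in clone 1 (MYC and MYCL higher, MXD4 lower), where 24.8% of all genes were called. In clone 2, 3 were called (MYC, MYCL and MXD1, all higher), against 29.4% of all genes. Set directly against each other, the clones differed by the call rule in none of the 10 genes, against 7.87% of all genes. DESeq2 also called 0, while 4 of the 10 had an unadjusted p under 0.05 in edgeR. By adjusted p alone 3 of the 10 differed between the clones, against 19.5% of all genes. MYC was higher in clone 2 by 0.18 log2 units (SE 0.06, adjusted p = 0.0380), MYCN was lower in clone 2 with a difference of -0.23 (SE 0.07, adjusted p = 0.0195), and MXD4 was higher in clone 2 by 0.48 (SE 0.11, adjusted p = 0.00267). The fall of MXD4 was larger in the clone with less PCGF6 transcript and the rise of MYC in the clone with more. With 2 clones no relation to the PCGF6 level can be tested.

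**Figure D3:**
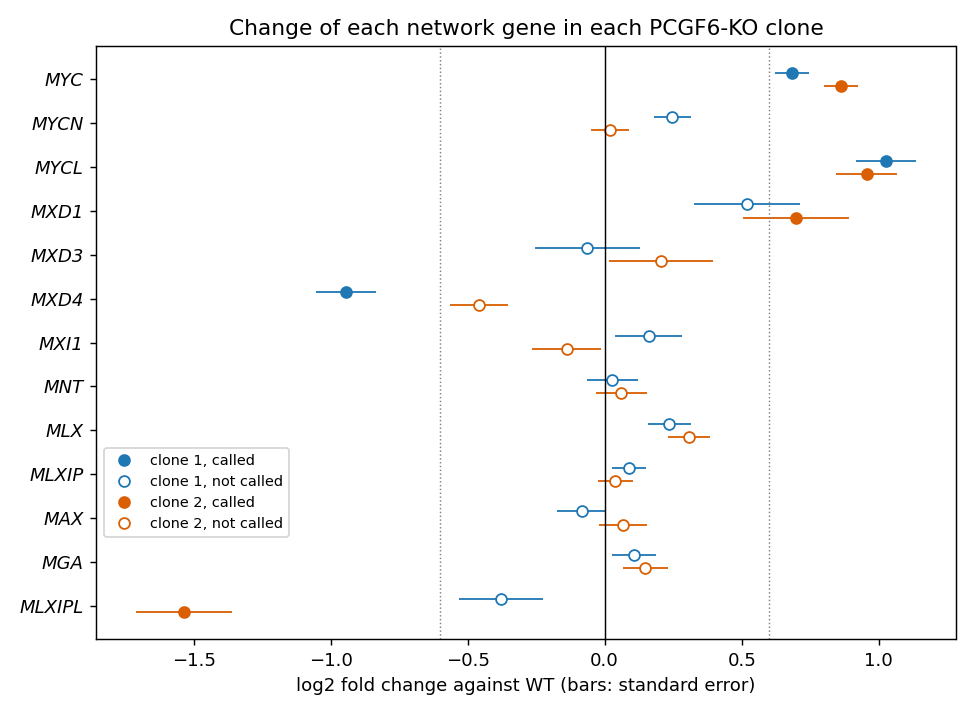
Log2 fold change against WT (x axis, bars are standard errors) of the 10 network genes and of MAX, MGA and MLXIPL in clone 1 and clone 2, with filled points for called genes and dotted lines at the fold threshold of 0.6. MYC and MYCL are called higher in both clones, MXD4 is at -0.94 in clone 1 and -0.46 in clone 2, and MLXIPL is at -1.54 in clone 2.

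Promoter sequence was compared because MYC, MXD and MNT dimers with MAX, and MLX dimers, bind the E-box CACGTG. RefSeq promoters (GRCh38.p14) were at hand for 9 of the 10 genes. None was at hand for MYC, so the MYC promoter was not searched for either motif. The 250 bases before each start were searched on both strands for the palindrome CACGTG and for the E2F6 motif GCGGGAA. E2F6 is a DNA-binding subunit of PRC1.6, and MGA with MAX in the same complex binds the E-box. The E-box lay in 3 of the 9 genes and in 7.73% of 27305 genes with a promoter, and the E2F6 motif in 0 of the 9 and in 6.66% of all. The windows around the 3 E-boxes are shown to place each motif, with the E-box in capitals, read 5′ to 3′ on the strand of the gene. That of MXD4 is chr4:2262315-2262359 (minus strand), with the E-box starting 238 bases before the start.
MXD4: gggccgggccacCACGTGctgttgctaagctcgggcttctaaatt
The MNT window is chr17:2401221-2401280 (minus strand), with the E-box 193 bases before the start.
MNT: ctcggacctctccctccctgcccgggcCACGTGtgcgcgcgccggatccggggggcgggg
The MLX window is chr17:42567023-42567082 (plus strand), with the E-box 50 bases before the start.
MLX: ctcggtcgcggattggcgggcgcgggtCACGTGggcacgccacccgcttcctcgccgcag
The 3 genes with an E-box did 3 different things: MXD4 fell, MNT was not called, and MLX was higher under the fold threshold. A match is a description of these letters and not a bound site, and no binding data were analysed here.

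Several of the genes share exon bases with a neighbour, and the strand setting of the counting is not given in the sources used here, so reads in those bases cannot be assigned with certainty. MXD1 (chromosome 2, 69897688 to 69942945) shares 237 bases with SNRNP27 on the same strand, whose log2 difference was 0.20 (adjusted p = 0.0828). MLX (chromosome 17, 42567072 to 42573239) shares 775 bases with PSMC3IP on the opposite strand, which had 0.09 (adjusted p = 0.498). Neither neighbour was called. MXD3 (chromosome 5, 177301461 to 177312757) shares 926 bases with RAB24 and 1148 with PRELID1, MYCN 98 with the antisense MYCNOS, and MYC 194 with CASC11.

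The nearest genes without overlap gave mixed results. PVT1, the long noncoding RNA 51575 bases beyond MYC, had 165 and 164 counts in WT and 222 to 245 in PCGF6-KO. Its log2 fold change, 0.37 (adjusted p = 0.0419), was under the fold threshold. ZFYVE28, a gene 7473 bases from MXD4 (chromosome 4, 2247432 to 2262109), fell with it from 37 and 47 counts in WT to between 3 and 5 in PCGF6-KO (log2 difference -3.30, adjusted p = 7.9e-05). Near MYCL, the lipid transporter gene MFSD2A fell (-0.92, adjusted p = 0.00612) while MYCL rose, and TRIT1 on the other side was not called (0.18, adjusted p = 0.0786).

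Genes that work with or below the network were taken from 7 lists, and 16 of the 122 tested were called, 12 higher and 4 lower, a smaller share than the 23.6% called among all genes (14.9% higher and 8.70% lower). Among the 17 coactivators that MYC recruits, 0 were called by edgeR's quasi-likelihood test and 0 by DESeq2, with a median log2 fold change of -0.10. In edgeR's test 7 had an unadjusted p under 0.05 and 3 an adjusted p under 0.05, where 37.1% of all genes passed by adjusted p. Of 17 SIN3 corepressor subunits, the partners of MXD proteins and MNT, only RBBP7 was called (-0.66, adjusted p = 3.1e-05), and the median was -0.04. Of 20 genes of MYC protein turnover, only FBXL14, a ubiquitin ligase subunit, was called. It had 106 and 127 counts in WT and 432 to 543 in PCGF6-KO, which is a log2 difference of 1.93 (SE 0.11, adjusted p = 3.3e-06).

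Of 45 tested growth genes known to be activated by MYC, 2 were called higher, 1 was called lower and 42 were not called, with a median of -0.04. These 3 calls are 6.67% of the list, against 23.6% of all genes. ODC1, the rate-limiting enzyme of polyamine synthesis and a direct MYC target, rose with a log2 fold change of 1.37 (SE 0.10, adjusted p = 1.2e-05) from 1406 and 1689 counts in WT to between 3637 and 5195. CCND2, a cyclin of the G1 phase, rose by 0.97 (SE 0.07, adjusted p = 9.4e-06). IMPDH2, the rate-limiting enzyme of guanine nucleotide synthesis, fell by 0.69 log2 units (SE 0.09, adjusted p = 0.000352), and its value of -0.59 in clone 2 alone was under the fold threshold.

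Of 10 tested genes known to be repressed by MYC, 8 were called higher and 0 lower, where 14.9% of all genes were called higher. Their median log2 fold change was 1.63. The list, like the others, was chosen with earlier results of these data known, so the comparison with all genes is not an independent one. Each clone alone had 9 of the 10 called higher, where 24.8% of all genes in clone 1 and 29.4% in clone 2 were called in either direction. CDKN2B, the cell cycle inhibitor p15, was nearly silent in WT with 0 and 2 counts, while clone 1 held 231 and 217 and clone 2 held 353 and 354 (adjusted p = 2.0e-05). THBS1, the matrix protein thrombospondin, rose by 2.31 (SE 0.10, adjusted p = 6.8e-07). NDRG1, a stress and differentiation gene, rose by 2.20 (SE 0.26). CDKN1A, the inhibitor p21, rose by 2.84 (SE 0.60, adjusted p = 0.00545), from 1 and 4 counts in WT to between 15 and 26. NDRG2 (0.34, adjusted p = 0.303) and CEBPA (1.71, adjusted p = 0.0525) were not called, and these were named after their values were seen. Mesendoderm and fibroblast markers moved with this group as given above, and their part was not tested.

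Among glucose-response targets of MLX dimers, 10 of the 12 genes listed were tested, with 1 called higher, 2 lower and a median of -0.06. The 3 calls among 10 genes are near the 23.6% of all genes. KLF10, a transcription repressor, rose by 0.81 (SE 0.10, adjusted p = 0.000249). PKLR, the pyruvate kinase of liver, fell with a log2 fold change of -1.67 (SE 0.33, adjusted p = 0.00390), and ACACB, an acetyl-CoA carboxylase, with -0.78 (SE 0.14, adjusted p = 0.00208). TXNIP, the best known target of MLXIP, was named after its values were seen. WT libraries held 542 and 475 TXNIP counts, clone 1 held 515 and 498, and clone 2 held 898 and 824, so only clone 2 stood apart (log2 fold change 0.71, adjusted p = 3.3e-07).

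**Figure D4:**
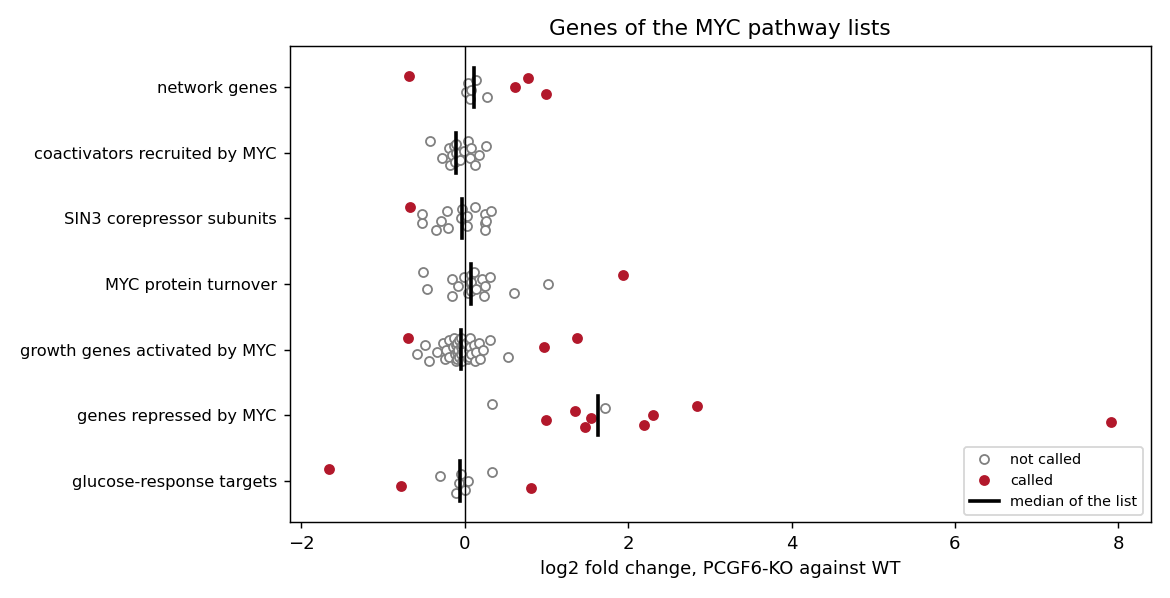
Log2 difference between PCGF6-KO and WT (x axis) for the 10 network genes and for each tested gene of 6 lists of partners and targets, with filled points for called genes and a bar at the median of each list. The medians lie between -0.10 and 0.11 except for genes repressed by MYC, at 1.63, where the point at far right is CDKN2B, whose fold rests on 0 and 2 WT counts.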

How the data were processed

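RNA-seq libraries of WT PGP1 cells and of 2 PCGF6-KO clones were used, with 2 libraries each. According to the methods and the submitters' processing notes, the authors trimmed reads with Trim Galore 0.6.2, aligned them with HISAT2 2.1.0 to GRCh38 and counted them with featureCounts. The authors deposited raw counts per gene with gene lengths. The annotation release, strand setting and handling of multi-mapped reads are not given in the sources used here. ChIP-seq was not analysed here.

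Genes were filtered with filterByExpr of edgeR (4.0.16, limma 3.58.1, R 4.3.3), scaled by TMM and compared by the quasi-likelihood test over 4 PCGF6-KO and 2 WT libraries. A second fit with 3 groups compared each clone with WT and with the other clone. Adjustment (Benjamini-Hochberg) ran over all 17672 tested genes. SEs were the log2 fold change over the root of F, and 95% intervals were normal intervals from these SEs. CPM used TMM-scaled totals and TPM the deposited lengths. The fits were tested on simulated data.

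Intervals and levels cover the spread between libraries. Replicates were not duplicates: the chi-square per degree of freedom between them was 2.40 (WT), 4.50 (clone 1) and 3.21 (clone 2), against 1 for counting error. Positions and overlaps came from GENCODE release 44. The genes named are the 10 network genes, MAX, MGA, MLXIPL, PCGF6, up to 4 called genes in each direction of each list, overlapping or nearest annotated genes, and for MYC and MYCL the 3 most correlated genes. Network genes and lists were chosen with earlier results of these data known. Alternatives were DESeq2 (1.42.0), other normalizations, filters and thresholds, the replicate block, the mean of the clones, and leaving out each library.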

Additional observations from a re-analysis of the deposited data

Results flagged for a closer look

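The clones differed from each other in 3 of the 10 network genes and in the partner gene MLXIPL by the test of the difference itself (edgeR's quasi-likelihood fit, Benjamini-Hochberg adjusted p over all genes, 2 libraries against 2), where 19.5% of all genes passed by adjusted p alone. Clone 2 minus clone 1 was 0.18 log2 units for MYC (adjusted p = 0.0380), -0.23 for MYCN (adjusted p = 0.0195), 0.48 for MXD4 (adjusted p = 0.00267) and -1.16 for MLXIPL (adjusted p = 3.3e-05). Among these, MLXIPL alone passed the fold threshold as well. For each of the 4 genes, both libraries of one clone lay on the same side of both libraries of the other. The genes were picked by this adjusted p, so that separation largely follows from the choice and adds no support. The clones also differed in the PCGF6 transcript that was left, by 0.90 log2 units, and its part in these differences was not tested.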

How the results depend on the processing

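MYC and MYCL kept their calls in PCGF6-KO and in each clone under every alternative run. Of 570 values of the network genes' log2 fold changes under alternatives, 534 kept their direction and side of the call, 10 gained a call, 11 lost one and 15 changed sign, all of the last for values that were not called. With the adjusted p alone, 6 network genes passed in clone 1, 5 in clone 2 and 3 between the clones. The fold threshold left 3, 3 and 0 of them. By the adjusted p alone 19.5% of all genes passed between the clones. The share of all genes is not given here for either clone against WT, so the counts of 6 and 5 cannot be read as an excess. In PCGF6-KO 43 of the pathway genes and 6556 of all genes passed by the adjusted p alone, and the fold threshold left 16 and 4167. Leaving out 1 library gave 2 to 4 network genes called in PCGF6-KO, with 2 without either WT library, where WT has a single sample that is assumed to vary like the other groups. Upper-quartile normalization, which moved the median of all genes to -0.03, gave -0.025 for MYCN and -0.0071 for MLXIP in clone 2 and -0.011 for MXI1 in PCGF6-KO, and 0.58 for MXD1 (adjusted p = 0.0459). Without 1 library, MYCN in clone 2 ranged from -0.030 to 0.066. The same ranges in PCGF6-KO were -0.019 to 0.17 for MXD3, -0.025 to 0.084 for MXI1 and -0.021 to 0.11 for MNT. They were -0.18 to 0.064 for MXD3 and -0.037 to 0.10 for MNT in clone 1, and -0.010 to 0.14 for MNT in clone 2. Between the clones they were -0.036 to 0.37 for MXD1 and -0.047 to 0.11 for MNT. The GENCODE lengths, tried after the data were seen, turned the order of MYC and MYCN as given above. TMM-scaled counts per kilobase in place of TPM moved the log2 ratio for MNT to 0.04 and for MLX to 0.27. The cause of these shifts was not tested. Deviations of equally numbered libraries correlated at 0.06 (WT and clone 1), 0.07 (WT and clone 2) and 0.19 (clone 1 and clone 2) over 15104 genes. The highest value was thus between the clones. Whether libraries of equal number were handled together is not stated in the labels and cannot be told from these values. With the replicate number as a block, 3 network genes, 17 pathway genes and 3876 of all genes were called in PCGF6-KO. The network genes called with the block were 3 in clone 1, 3 in clone 2 and 0 between the clones. No share of all genes is given here for these clone comparisons, so their counts cannot be read as an excess. MXD1 and MXD3 had the fewest counts, and changes near the fold threshold are not resolved for them at this depth.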

Other observations

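The genes whose log2 CPM was most like that of MYC over the 6 libraries, among 13632 genes averaging 1 log2 CPM or more, were PDE1B, NXF1 and PXDN, each with a Pearson r of 0.998. For MYCL they were MAFF, NT5C2 and NAGK, with r of 1.00, 0.999 and 0.998. Such values were common, since 1557 genes had r over 0.95 with MYC and 1255 with MYCL. They are descriptions over libraries that share their cells and their groups.

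MXD and MNT genes took unequal parts in the repressor sum beyond MXD4. The MNT share was 31.4% and 34.2% in WT and between 33.6% and 37.4% in PCGF6-KO, so MNT and not MXD4 held the largest share in every library. Per unit of MAX in TPM, the MYC family sum was 10.8 and 10.0 in the WT libraries. Clone 1 gave 16.02 and 15.3, and clone 2 gave 14.2 and 14.6. The size of these ratios rests on the deposited lengths, where MAX has 4430 bases and 6257 in GENCODE.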
